A study of Rattus norvegicus with 7 samples.

Results

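The genes followed here encode the T-cell co-receptors CD8 (Cd8a and Cd8b) and CD4 (Cd4), the CD3 chains of the T-cell receptor complex (Cd3e, Cd3d and Cd3g) and the T-cell surface proteins CD2 and CD5. They were picked by name with earlier results of these data known, so their values are a description and no test. A gene entered through the probe that the platform annotation names for it. Of these 8 genes, 7 had a probe, out of 13337 genes with a probe in all, and each of the 7 had a single probe. No probe is named for Cd2, which was not analysed here. The question was whether Cd8a and Cd8b increased in the brain after stroke with or without the genes of the T-cell receptor.

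Messenger RNA was measured in the brain of male Wistar rats of 280 to 320 g on 7 Illumina bead arrays, with 400 ng of total RNA per array. Of these, 6 arrays were from rats 12, 24, 48, 72, 120 and 168 hrs after embolic middle cerebral artery occlusion (eMCAo), in which an injected clot blocks a main artery of the forebrain, and 1 array was from normal rats, which had no surgery. The labels give no transgene, allele or further treatment, and they give the tissue of all 7 arrays, the normal one included, as ischemic brain. Neither they nor the study's methods say which brain region was taken or if the RNA on an array came from 1 animal or from a pool. Every group had 1 array, so no difference could be tested, and all values are a description whose precision is limited by that number. The labels name the arrays as successive positions of 1 chip in the order of time, so position and time cannot be told apart.

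CD8 and CD4 stabilise the contact of a T cell with a target by binding MHC class I and class II molecules, and they bring the kinase Lck to the T-cell receptor. The receptor itself cannot reach the surface without the CD3 chains, so CD3 is carried by all mature T cells, whereas the co-receptors are not limited to them. In the rat, CD4 is also found on monocytes, macrophages and microglia, and CD8 also on natural killer cells and on some activated macrophages. CD8 is a pair of chains, either alpha with beta or alpha with alpha, and the beta chain is best known from T cells.

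Values are the deposited intensities, the background-subtracted brightness of a probe, which can be negative. A probe was called detected when it exceeded the detection limit of its array, which lay between 8.72 and 10.1 intensity units. Folds compare normalized intensities after adding 16, so for dim genes they come out too small. For a probe below detection on the dimmer of the arrays compared, the fold is set against the lowest detected level there and is written as "at least". A gene was said to rise or fall when it differed by 2-fold or more and was detected on at least 1 of the 2 arrays, which is a rule of size and not a test. Brightness depends on the probe, so the height of a gene's values cannot be compared with that of another gene. In a whole tissue, fewer cells of a type and less RNA per cell cannot be told apart.

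On all 7 arrays, marker genes of neurons (7 of 7), astrocytes (4 of 4) and oligodendrocytes (5 of 5) were detected, as fits the labelled tissue, and between 8656 and 9066 genes were detected per array. The arrays differed in genes of particular brain regions and of blood. The summed intensity of 7 hypothalamic genes was 413 on the normal array, 3820 and 4870 at 12 and 24 hrs, 3649 and 927 at 48 and 72 hrs, and 7396 and 2184 at 120 and 168 hrs. Among them Avp, the vasopressin gene, had folds over normal of 25.3 (12 hrs), 19.8 (24 hrs), 15.4 (120 hrs) and 17.0 (168 hrs), whereas Pmch, another neuropeptide gene, had 5310 at 120 hrs, against 36.6 on the normal array, and was not higher at the other times under the rule. Tshb, of the pituitary, was detected at 120 hrs alone (1408, against -1.39 on the normal array). The sum of 7 erythrocyte genes was 10949 and 5742 at 12 and 24 hrs and between 150 and 1508 later, against 485 on the normal array. That of 6 choroid plexus genes was 18722 at 12 hrs, against 5576, with 4 of the 6 higher, beside 2.95% of all genes. The part of these differences in tissue content in the results below was not tested.

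Cd8a rose from 48 hrs onwards, and of the 7 genes it had the largest fold as bounded here. Cd8a encodes the alpha chain of CD8. Its intensity was -5.94 on the normal array, 0.726 and 29.0 at 12 and 24 hrs, 215 and 675 at 48 and 72 hrs, and 723 and 228 at 120 and 168 hrs. It was thus detected on 5 arrays, from 24 hrs on, and was highest at 72 and 120 hrs, which differed by 1.13-fold. Against the normal array Cd8a was at least 1.48-fold higher at 24 hrs, which is short of the rule although the deposited intensities taken as they are passed it, and at least 6.51-fold higher at 48 hrs. The folds of the next 3 arrays were at least 16.4 (72 hrs), at least 18.5 (120 hrs) and at least 7.07 (168 hrs). Among neighbouring arrays with Cd8a detected on both, the largest step was at 48 hrs, 4.40-fold above 24 hrs. A further 2.51-fold was added at 72 hrs, and at 168 hrs the level was 2.61-fold below that at 120 hrs.

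Cd8b followed a similar course and passed the rule from 72 hrs on. Cd8b encodes the beta chain, and its gene lies next to Cd8a on chromosome 4 of the rat in the RefSeq annotation. Its intensity was -5.12 on the normal array, -1.56 and 5.94 at 12 and 24 hrs, 38.6 and 137 at 48 and 72 hrs, and 173 and 60.8 at 120 and 168 hrs. It was detected from 48 hrs on, 1 array later than Cd8a. As brightness depends on the probe, no later start of Cd8b is read from this order. Over normal Cd8b was at least 1.73-fold higher at 48 hrs, which is short of the rule. The folds at the next times were at least 3.93 (72 hrs), at least 4.91 (120 hrs) and at least 2.48 (168 hrs). Cd8b was 2.28-fold higher at 72 hrs than at 48 hrs, 1.25-fold higher at 120 hrs than at 72 hrs, and 1.98-fold lower at 168 hrs than at 120 hrs. Over the 7 arrays Pearson's r between the normalized log2 levels of Cd8a and Cd8b was 0.99, given as a description of arrays that share 1 chip.

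Cd4 passed the rule at 120 hrs, and at 72 and 168 hrs under some other settings. Cd4 encodes the co-receptor for MHC class II. Its intensity was -0.550 on the normal array, 6.97 and 0.645 at 12 and 24 hrs, 0.199 and 31.1 at 48 and 72 hrs, and 83.03 and 28.3 at 120 and 168 hrs. It was not detected on the normal array nor up to 48 hrs, when Cd8a was already at least 6.51-fold above normal. Over normal Cd4 was higher by at least 1.45-fold (72 hrs), at least 2.68-fold (120 hrs) and at least 1.56-fold (168 hrs), and the first and last of these were short of the rule. Cd4 was 1.85-fold higher at 120 hrs than at 72 hrs and 1.72-fold lower at 168 hrs than at 120 hrs. Its r over the 7 arrays was 0.76 with Cd8a and 0.85 with Cd8b. With an offset of 50 the difference of Cd4 at 120 hrs was 0.91 on the log2 scale and no longer passed the rule. On the deposited intensities with no background model and no offset Cd4 passed it at 72 hrs (1.71) and 168 hrs (1.58) as well, and so it did with the measured difference in place of the bound (1.03 and 1.13).

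**Figure D1:**
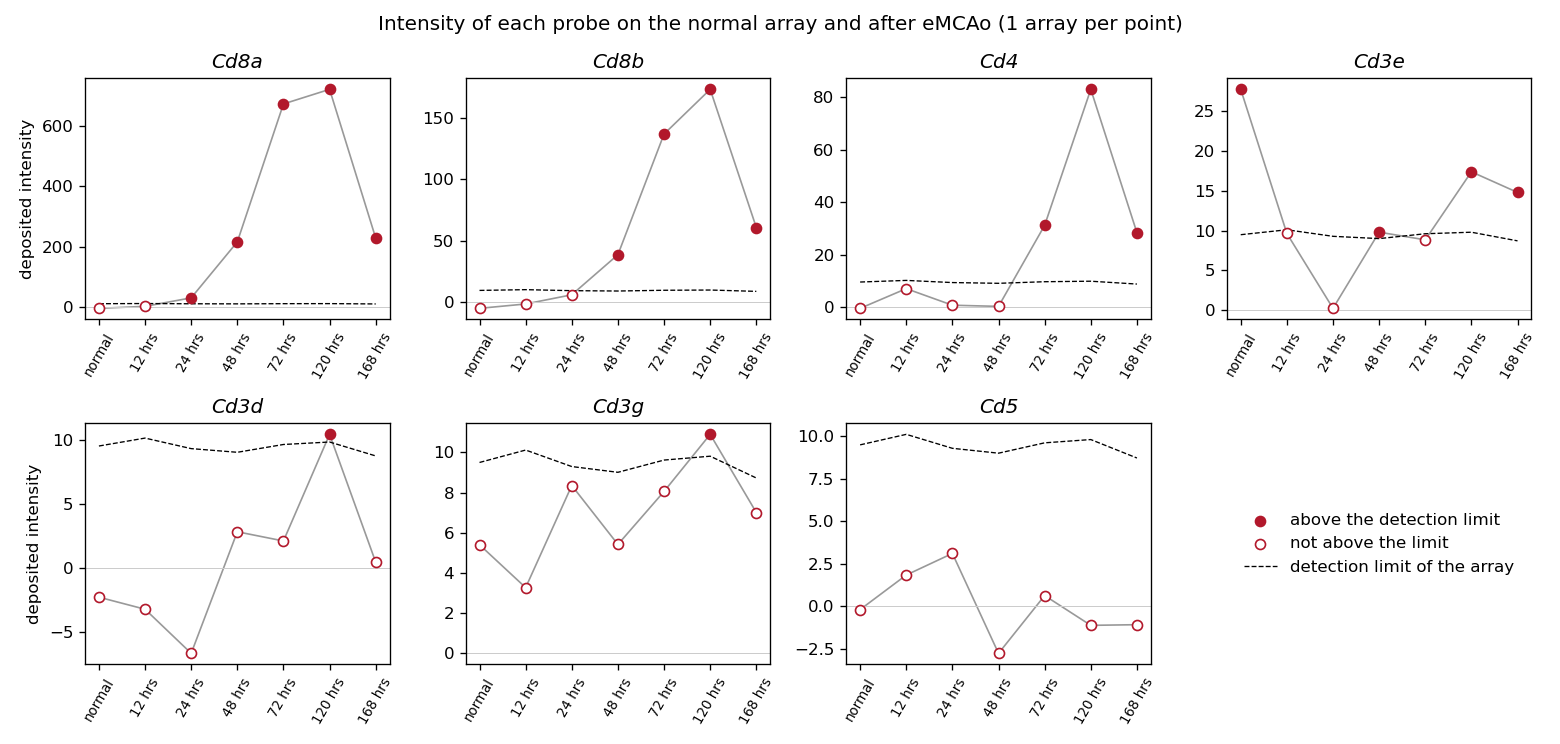
Deposited intensity (y axis, linear, its own range in each panel) of the probe of each of the 7 genes on the arrays in order of time (x axis), 1 array per point. Filled points lie above the detection limit of their array (dashed line) and open points do not. Cd8a reaches 723, Cd8b 173 and Cd4 83.03 at 120 hrs, while Cd3e is highest on the normal array at 27.7 and Cd3d, Cd3g and Cd5 stay at or below 10.9.

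Cd3e was the only CD3 gene detected on the normal array, and it did not rise at any time. Cd3e encodes the epsilon chain, which pairs with both the gamma and the delta chain. Its intensity was 27.7 on the normal array, 9.65 and 0.249 at 12 and 24 hrs, 9.81 and 8.85 at 48 and 72 hrs, and 17.4 and 14.8 at 120 and 168 hrs. The normal array was the highest of the 7, and at 12, 24 and 72 hrs the probe was not detected. Against normal it was lower by at least 1.58-fold (12 hrs), at least 1.63-fold (24 hrs), 1.58-fold (48 hrs), at least 1.64-fold (72 hrs), 1.36-fold (120 hrs) and 1.33-fold (168 hrs), and none of these passed the rule. On the deposited intensities, with no background model and no offset, Cd3e did pass it as lower at 12, 24, 48 and 72 hrs, so the size of this difference rests on the processing. Its r with Cd8a over the 7 arrays was -0.14.

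The other chains were close to the limit of detection throughout. Cd3d, of the delta chain, had an intensity of -2.29 on the normal array, -3.23 and -6.66 at 12 and 24 hrs, 2.81 and 2.09 at 48 and 72 hrs, and 10.4 and 0.440 at 120 and 168 hrs. Cd3g, of the gamma chain, had 5.40 on the normal array, 3.27 and 8.35 at 12 and 24 hrs, 5.42 and 8.05 at 48 and 72 hrs, and 10.9 and 7.00 at 120 and 168 hrs. Both were detected at 120 hrs alone, where the limit was 9.81. No fold was given there because the value did not exceed the lowest detected level of the normal array. Over the 7 arrays Cd3d had an r of 0.78 with Cd8a and 0.81 with Cd8b, and Cd3g of 0.64 and 0.67. With detection at 120 hrs alone, these r values rest mostly on levels below the limit. Cd5, which encodes a scavenger-receptor type inhibitor of T-cell receptor signaling, was detected on no array, with intensities between -2.76 and 3.11. The genes of the 3 CD3 chains are neighbours on chromosome 8, in the order Cd3g, Cd3d and Cd3e. Their normalized levels had r values between -0.03 and 0.40 with each other. As Cd3d and Cd3g were mostly below detection, it cannot be read from these values if the 3 genes vary together.

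The 2 sequences that follow show the start regions of Cd8a, the gene with the largest bounded fold, and of Cd3e, the CD3 gene detected on the normal array, as letters in which to look for the factors of T cells and of myeloid cells. They are RefSeq windows on build GRCr8, from 250 bases before to 50 after the annotated start, Cd8a at chr4:104923866-104924165 on the plus strand and Cd3e at chr8:54211721-54212020 on the minus strand, printed 5′ to 3′ along the gene. Capitals mark matches, on either strand, to TGNGGT (RUNX, factors of T cells and other blood cells), GAGGAA (PU.1, a factor of myeloid and B cells) or CTTTGNT (TCF/LEF, which include factors of T cells), where N is any base.
Cd8a: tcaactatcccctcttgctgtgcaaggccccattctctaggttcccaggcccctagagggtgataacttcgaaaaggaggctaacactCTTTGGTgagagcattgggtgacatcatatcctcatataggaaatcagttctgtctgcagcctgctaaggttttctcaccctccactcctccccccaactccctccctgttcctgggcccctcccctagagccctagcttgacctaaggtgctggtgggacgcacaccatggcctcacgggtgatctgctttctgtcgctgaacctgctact
Cd3e: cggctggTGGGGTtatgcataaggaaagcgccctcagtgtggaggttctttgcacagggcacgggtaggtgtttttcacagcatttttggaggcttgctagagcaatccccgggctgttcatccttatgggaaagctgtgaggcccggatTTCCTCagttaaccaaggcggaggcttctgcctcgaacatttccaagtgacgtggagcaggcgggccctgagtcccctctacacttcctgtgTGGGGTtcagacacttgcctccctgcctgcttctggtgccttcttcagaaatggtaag

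The Cd8a window held 1 TCF/LEF match and none to the RUNX or PU.1 letters, and the Cd3e window held 2 RUNX matches and 1 PU.1 match. No match overlapped another. Of all 33469 windows of that length in the table, 47.1% held the RUNX letters, 27.6% the PU.1 letters and 19.0% the TCF/LEF letters, so each is common. A match is a description of letters and not a binding site. In the same table, Cd3d and Cd3g each held 1 TCF/LEF match and neither of the others, Cd2 held 3 RUNX matches and 1 PU.1 match, and Cd5 held 2 RUNX matches and 1 PU.1 match. The table held windows for 6 of the 8 genes, and those of Cd8b and Cd4 were not analysed here.

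Counted together, the genes that rose were those of the co-receptors, and the CD3 genes and Cd5 did not pass the rule at any time. At 12 hrs 0 of the 7 genes were higher and 0 lower, beside 2.95% higher and 0.849% lower among all 9190 genes detected on either array. At 24 hrs 0 were higher and 0 lower, beside 4.2% and 2.61% of 9339 genes. At 48 hrs 1 gene, Cd8a, was higher and 0 lower, beside 5.33% and 2.56% of 9368 genes. At 72 hrs 2 genes, Cd8a and Cd8b, were higher and 0 lower, beside 7.74% and 3.99% of 9409 genes. At 120 hrs 3 genes, Cd8a, Cd8b and Cd4, were higher and 0 lower, beside 8.45% and 4.72% of 9389 genes. At 168 hrs 2 genes, Cd8a and Cd8b, were higher and 0 lower, beside 4.61% and 0.848% of 9194 genes. The genes were chosen with these values known, so nothing is read from the counts. Over the 4 genes with a fold at 120 hrs the median log2 difference was 1.86, beside -0.07 over all genes. Cd3d and Cd3g were detected there but had no fold, so this median leaves them out and nothing is read from it.

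**Figure D2:**
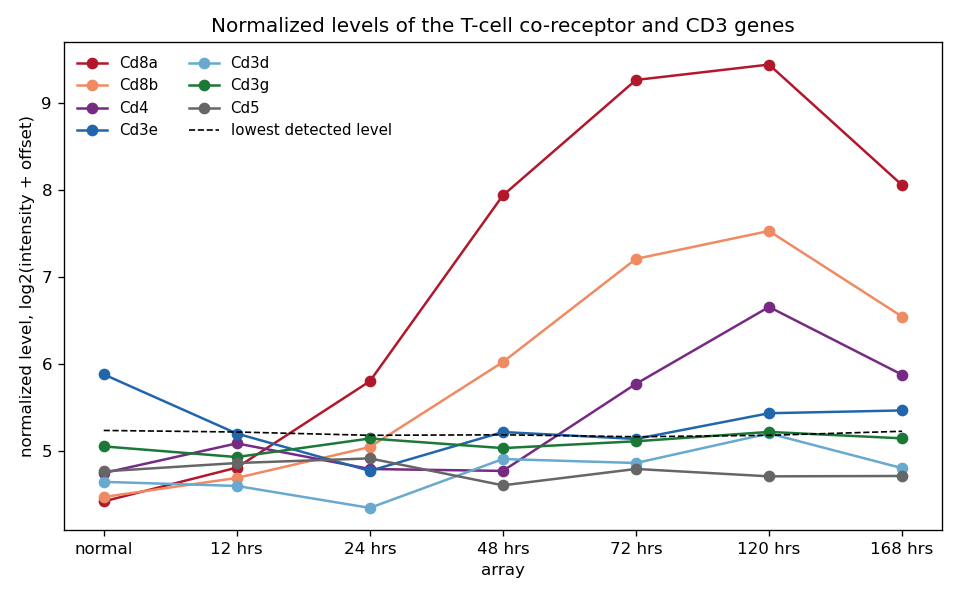
Normalized log2 level (y axis, log2 of intensity plus 16) of each of the 7 genes on the arrays in order of time (x axis), 1 array per point, with the lowest detected level of each array as a dashed line. Only the course of a line can be read, not its height against another gene: at 120 hrs Cd8a is at 9.44, against 4.42 on the normal array, Cd8b at 7.53 against 4.47 and Cd4 at 6.65 against 4.74, whereas Cd3e is at 5.43 against 5.88.

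Some of the remaining genes of T-cell receptor signaling rose, and each of those is also expressed by other leukocytes. Of 26 listed genes with a probe, 11 were detected on no array, among them Cd247, the zeta chain that carries the receptor's signal, with intensities between -3.02 and 5.49, and Cd28, its costimulator, between 0.112 and 7.92. At 120 hrs 14 of the 26 genes were detected on either array, 4 were higher and 1 was lower, with a median log2 difference of 0.38, beside 8.45% higher and 4.72% lower over all genes at that time. The summed intensity of the 26 genes was between 2534 and 3884 on the arrays after eMCAo and was 2300 on the normal array. Much of it came from Bcl10 (531 to 1118 over the 7 arrays), Prkcq (382 to 821), Plcg1 (391 to 502) and Fyn (283 to 457). No course of T-cell RNA is therefore read from this sum. The 4 genes that were higher at 120 hrs were Vav1, Ptprc, Lcp2 and Sla. Vav1, an exchange factor of blood cells, was 7.19-fold higher at 120 hrs (339, against 17.8 on the normal array). Ptprc, which encodes the pan-leukocyte phosphatase CD45, was at least 7.12-fold higher (261, against 3.97). Lcp2, an adaptor of T cells, myeloid cells and platelets, was 4.45-fold higher (243, against 25.1), and Sla, an adaptor that dampens receptor signaling, was 2.92-fold higher (92.8, against 9.60). The gene that was lower was Rasgrp1, an activator of Ras in T cells that neurons also express, by 2.09-fold (120, against 229).

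Of the kinases next to the receptor, Lck was detected on 5 arrays and Zap70 on 2. Fyn, another kinase of this list, was detected on all 7 arrays, between 283 and 457, and had an r of -0.11 with Cd8a. Lck, which binds the tails of CD4 and CD8, had an intensity of 8.56 on the normal array, 7.24 and 17.4 at 12 and 24 hrs, 18.4 and 20.99 at 48 and 72 hrs, and 19.7 and 11.4 at 120 and 168 hrs. It was detected from 24 hrs on and was at least 1.20-fold above normal at 120 hrs, short of the rule. On the deposited intensities with no background model and no offset it did pass (log2 difference 1.05). Zap70, which docks on phosphorylated CD3 and zeta chains, was detected at 24 and 48 hrs alone, with 15.3 and 17.4, and had -1.0002 at 120 hrs and 6.75 on the normal array. Lat, the adaptor phosphorylated by ZAP-70, was detected on all 7 arrays between 12.5 and 28.7, highest on the normal array, and was 1.39-fold lower at 120 hrs.

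Few other T-cell genes could be measured. Of 24 surface and lineage genes with a probe, 12 were detected on no array. At 120 hrs 8 were detected on either array, 0 were higher and 1 was lower, with a median log2 difference of 0.08. With 8.45% higher and 4.72% lower over all genes, counts this small are near that share and are no result about the list. The gene that was lower was Satb1, a chromatin organiser of thymocytes that neurons also express, by 2.56-fold (312, against 716 on the normal array). Cd6, the neighbour of Cd5, was detected on all 7 arrays, between 20.3 and 68.6. At 120 hrs its log2 difference from normal was 0.81, short of the rule, and 1.74 on the deposited intensities, which passed it. Its r with Cd8a was 0.77, within a range of -0.73 to 0.83 over the 9 genes of this list detected on 2 or more arrays. The summed intensity of the 24 genes was between 903 and 1193 on the 6 arrays after eMCAo and was 1138 on the normal array. Much of it came from Satb1 (312 to 716 over the 7 arrays) and Havcr2 (213 to 317), so no course of T-cell RNA is read from it. Of 4 genes of ligands and binding partners of CD2, CD4 and CD5 with a probe, 3 were higher at 120 hrs and 0 lower. Cd48, a ligand of CD2 in the rat and a surface protein of most leukocytes, was 3.46-fold higher (2313, against 556), Pstpip1, which binds CD2, 2.84-fold (123, against 18.8), and Il16, which encodes a ligand of CD4, 2.75-fold (122, against 19.9).

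Genes of cytotoxic and natural killer cells, the other lymphocytes that carry CD8, were mostly below detection. Of 21 with a probe, 11 were detected on no array, among them Gzmb and Gzma, which encode granzymes, and the killer cell receptor genes Klrd1 and Ncr1. Gzmb had intensities between -3.49 and 0.358. Prf1, which encodes the pore-forming perforin, had 8.56 on the normal array, 11.4 and 16.6 at 12 and 24 hrs, 15.5 and 7.59 at 48 and 72 hrs, and 12.2 and 6.04 at 120 and 168 hrs, highest at 24 hrs. At 120 hrs 7 genes were detected on either array, 0 were higher and 0 lower, with a median log2 difference of 0.02, which again is near the 8.45% and 4.72% over all genes. The gene of this list that passed the rule at any time was Cst7, which encodes cystatin F of killer cells and of activated microglia, at least 2.48-fold higher at 48 hrs and at least 2.62-fold at 72 hrs. Cst7 had an intensity of 66.8 at 48 hrs, 80.3 at 72 hrs and 29.3 at 120 hrs, against -7.18 on the normal array. The summed intensity of the 21 genes was between 117 and 201 on the arrays after eMCAo and was 83.01 on the normal array.

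B-cell genes were also dim. Of 11 with a probe, 7 were detected on no array, among them Ms4a1, which encodes CD20, with intensities between -3.82 and 4.17. No probe is named for Cd79a. At 120 hrs 4 of the 11 were detected on either array and 1 was higher, Blnk, an adaptor of B cells that macrophages also express, by 4.19-fold (157, against 11.9 on the normal array). With 8.45% of all genes higher at that time, a count this small is no result about the list. The summed intensity of the 11 genes was between 40.7 and 218 on the arrays after eMCAo and was 43.1 on the normal array.

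Genes of macrophages and microglia rose on the arrays where Cd8a and Cd8b rose, and some of them at 12 and 24 hrs, before Cd8a passed the rule. Most of them were detected on the normal array too. Of 28 with a probe, 2 were detected on no array and 21 were detected on the normal array. The number that was higher was 4 and 9 at 12 and 24 hrs, 13 and 20 at 48 and 72 hrs, and 21 and 17 at 120 and 168 hrs, with 1 lower at 12 hrs and at 24 hrs and 0 lower from 48 hrs on. Over all genes 2.95% and 4.2% were higher at 12 and 24 hrs, 5.33% and 7.74% at 48 and 72 hrs, and 8.45% and 4.61% at 120 and 168 hrs. Their median log2 difference was 1.25 and 2.08 at 48 and 72 hrs and 2.66 and 2.17 at 120 and 168 hrs. The summed intensity of the 28 genes was between 10844 and 66012 on the arrays after eMCAo, lowest at 12 hrs and highest at 120 hrs, and was 11195 on the normal array. No probe is named for Cd68 or Csf1r. Whether these cells carried the Cd8a signal was not tested.

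Markers of other cells moved on the same arrays. Over all genes 7.74% were higher and 3.99% lower at 72 hrs, 8.45% and 4.72% at 120 hrs, and 4.61% and 0.848% at 168 hrs. Of 6 genes of meninges and fibroblasts with a probe, 4 were higher at 72 hrs and 5 at 120 and 168 hrs, with a median log2 difference of 1.92 at 120 hrs and an r with Cd8a between 0.66 and 0.87. Their summed intensity was 11226 at 120 hrs, against 2410 on the normal array, and Lum, which encodes the matrix protein lumican, was 9.00-fold higher. Of 14 neutrophil genes with a probe, 7 were detected on either array at 120 hrs and 4 of them were higher. The sum of the 14 was already 3441 at 24 hrs, against 155 on the normal array. This sum mostly follows 1 gene, Lcn2, which ranged from 22.3 to 3374 over the 7 arrays. Of the 14 genes, 5 were detected on no array, S100a9 among them, and Mpo was at most 13.7. No course of neutrophils is read from the sum. Of 10 dendritic cell genes 7 were detected on either array at 120 hrs and 3 were higher, among them Cd1d1, a lipid-presenting molecule gene, by 5.10-fold, with an r of 0.95 with Cd8a. Of the 7 dendritic cell genes detected on 2 or more arrays, Cd1d1 alone had an r above 0.9. Their median r was 0.35, and Flt3 and Zbtb46 had -0.59 each. Of 7 neuron genes 2 were lower at 72 hrs and 3 at 120 hrs, with an r between -0.99 and -0.84, and their sum was 15325 at 120 hrs, against 27463 on the normal array. The part of these cells in the course of Cd8a was not tested.

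Some genes of the macrophage and microglia list are given as examples. Fcgr3a, an Fc receptor gene, was 30.1-fold higher at 120 hrs (2952, against 57.1 on the normal array). Trem2, a lipid receptor gene of phagocytes, was 14.6-fold higher at 120 hrs (9620, against 533), and Tyrobp, the adaptor of TREM2, 13.4-fold (1307, against 58.0). Clec7a, which encodes the glucan receptor dectin-1, was at least 12.6-fold higher at 72 hrs (508, against 0.530), and Itgam, of the integrin CD11b, 9.00-fold at 120 hrs (543, against 27.7). Cd14, of the endotoxin receptor, took another course, with its highest value at 24 hrs (1965, against 27.3 on the normal array), before Cd8a passed the rule.

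The MHC genes whose products CD8 and CD4 bind also rose. Over all genes 5.33% were higher and 2.56% lower at 48 hrs, and 7.74% and 3.99% at 72 hrs. The shares were 8.45% and 4.72% at 120 hrs, and 4.61% and 0.848% at 168 hrs. Of 9 class II genes with a probe, 6 were higher at each of 48, 72, 120 and 168 hrs and 0 lower, with a median log2 difference of 1.99 at 48 hrs and 2.86 at 120 hrs. RT1-Da, a class II alpha chain gene, was 27.6-fold higher at 72 hrs (4216, against 95.5 on the normal array). RT1-Ba was 12.7-fold higher at 120 hrs (561, against 14.4), and Cd74, the invariant chain that escorts class II, 10.9-fold (504, against 16.03). The peptide-loading genes RT1-DMb and RT1-DMa were 8.89-fold and 5.95-fold higher at 120 hrs. Of 16 class I genes with a probe, 2 and 5 were higher at 12 and 24 hrs, beside 2.95% and 4.2% of all genes. This was before Cd8a passed the rule. At 48 and 72 hrs 8 were higher each, and at 168 hrs 12 were, with 0 lower at any time. At 120 hrs 11 were higher, with a median log2 difference of 1.53. Among them the immunoproteasome gene Psmb8 was 10.1-fold higher (2115, against 152) and the class I heavy chain gene RT1-A1 7.13-fold (3531, against 405). Rat class I genes are near-identical copies, and a probe of an RT1-A or RT1-CE gene can read more than 1 of them. RT1-A2 was 5.09-fold, RT1-A3 5.73-fold and RT1-CE16 5.10-fold higher at 120 hrs.

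**Figure D3:**
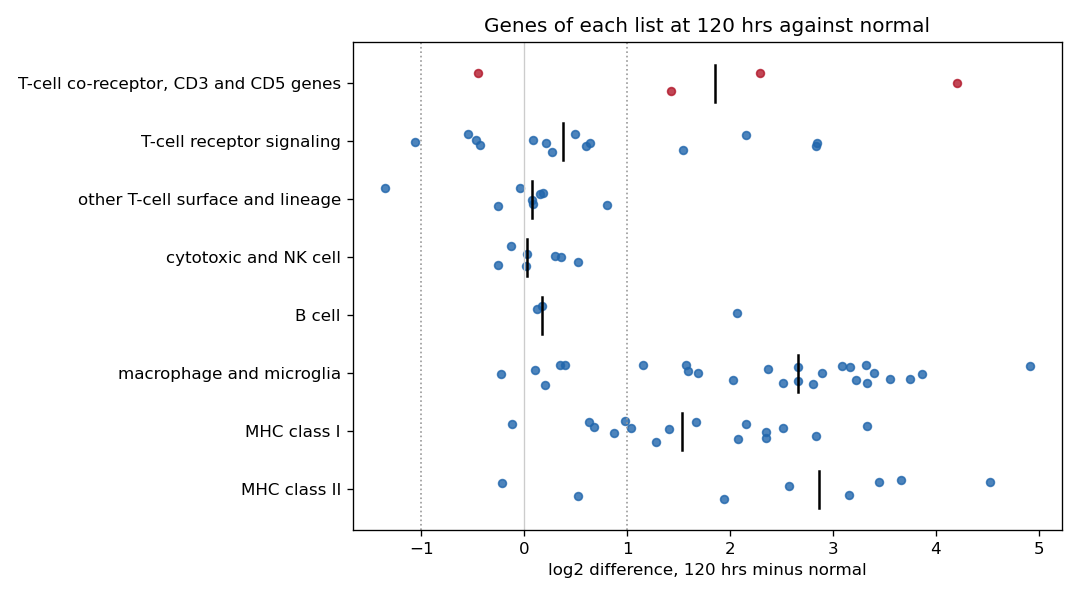
Log2 difference from normal at 120 hrs (x axis, 120 hrs minus normal, bounded where the normal array was below detection) of each gene with a fold, in the 4 co-receptor and CD3 genes with a fold and in 7 lists of genes (rows). Each point is a gene, the black bar is the median of its row and the dotted lines are 2-fold. The medians are 0.38 for T-cell receptor signaling, 0.08 for other T-cell genes, 0.02 for cytotoxic and NK cell genes, 2.66 for macrophage and microglia genes, 1.53 for MHC class I and 2.86 for MHC class II genes.

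The genes most like Cd8a were sought among 1775 genes that were detected on at least 2 arrays and passed the rule at 1 or more times, by Pearson's r of the normalized log2 levels over the 7 arrays. The 10 highest were Arl11 (r = 0.998), Vamp8 (0.997), Ncf1 (0.997), Slc7a7 (0.996), Tbxas1 (0.993), Cd74 (0.992), Gpx1 (0.992), Arrdc1 (0.992), Btk (0.992) and Plbd1 (0.992). Of these Ncf1 encodes a subunit of the phagocyte oxidase, Tbxas1 thromboxane synthase, Btk a kinase of B cells and myeloid cells, Slc7a7 an amino acid transporter, Vamp8 a vesicle fusion protein and Gpx1 a glutathione peroxidase. Such a course was common, since 397 of the 1775 genes had an r above 0.9, and with 7 arrays on 1 chip no gene stands out by its r alone. Of these 10 genes, 5 were again among the 10 highest without the 120 hrs array, and 2 with Spearman's rho. Ncf1 had an intensity of 78.0 on the normal array, 120 and 212 at 12 and 24 hrs, 912 and 2467 at 48 and 72 hrs, and 3364 and 1149 at 120 and 168 hrs. Arl11, a small GTPase-like protein gene, had 30.2 on the normal array, 35.8 and 77.9 at 12 and 24 hrs, 238 and 553 at 48 and 72 hrs, and 627.5 and 265 at 120 and 168 hrs. Unlike Cd8a, both were detected on the normal array. By list, r with Cd8a was above 0.9 for 12 of 26 macrophage and microglia genes detected on 2 or more arrays, 6 of 8 MHC class II genes, 5 of 16 MHC class I genes and 5 of 15 T-cell receptor signaling genes. It was above 0.9 for 0 of 8 cytotoxic and natural killer cell genes and 0 of 9 other T-cell genes.

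**Figure D4:**
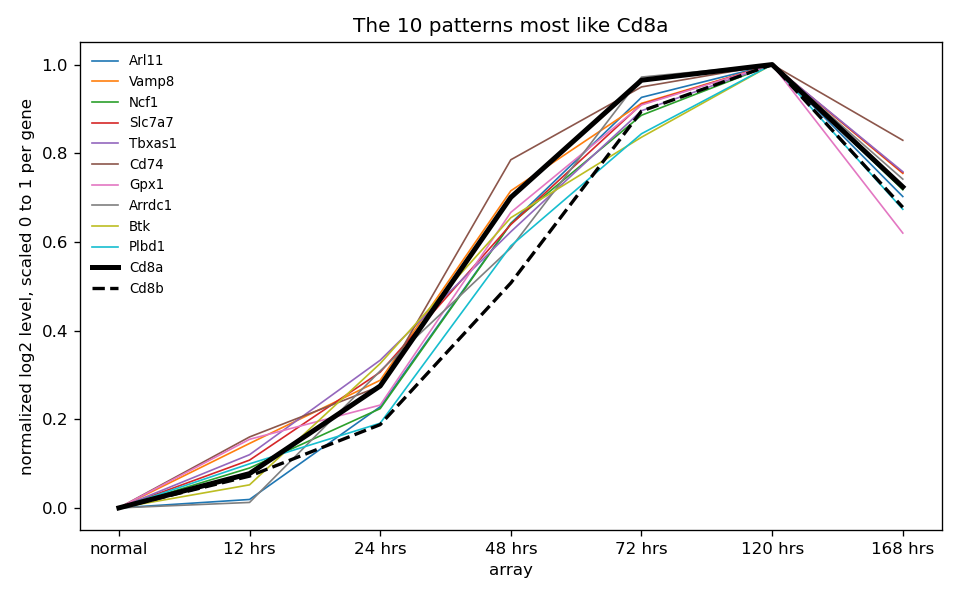
Normalized log2 level, scaled from 0 at the lowest to 1 at the highest array of each gene (y axis), of Cd8a (thick line), Cd8b (dashed line) and the 10 genes most like Cd8a (thin lines) on the arrays in order of time (x axis), 1 array per point. All 12 lines are lowest on the normal array and highest at 120 hrs. Cd8b lies below Cd8a at 48 hrs.

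Fewer genes had an r above 0.9 with Cd4 than with Cd8a. Cd4 was below detection on the normal array and up to 48 hrs, so its r values rest in large part on levels below the limit. The 5 genes most like Cd4 were Gpx3 (r = 0.992), Spmap2l (0.981), Abcg3l2 (0.970), Adgre1 (0.966) and Adh1c (0.963). In all, 116 of the 1775 genes had an r above 0.9 with Cd4. Gpx3 encodes a secreted glutathione peroxidase and Adgre1 the macrophage surface protein F4/80. Adgre1 had an intensity of 17.6 on the normal array, 35.3 and 31.5 at 12 and 24 hrs, 50.6 and 161 at 48 and 72 hrs, and 327 and 177 at 120 and 168 hrs. Like Cd4 it was highest at 120 hrs, and at 120 hrs it was 6.99-fold above normal.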

How the data were processed

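Groups were taken from the labels. The values used were the intensity values deposited by the authors for 22523 probes on 7 arrays. The study's methods name BeadStudio and state that background was subtracted. GenomeStudio 1.8.0 is named in the submitters' processing notes. Scaling to 5S rRNA is mentioned in the methods, and it is not stated that it applied to these arrays. Another table held 48 columns, of 12 arrays with names of no sample here, and was not used. Of the probes 13793 had 1 gene symbol, 0 several and 8730 none in the platform annotation, and a gene was read from its brightest probe.

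With limma 3.58.1 (R 4.3.3) the normexp background model was fitted to each array, followed by an offset of 16, log2 and quantile normalization. Its fitted background was -11.8 to -10.3 units, which adds to the offset. Between 20.8% and 21.9% of values per array were below 0, and the detection limit was the 98th percentile of these, mirrored. Where a bound turned the sign of a difference no fold was given. The steps were tested on simulated data.

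The genes and lists were chosen with earlier results of these data known. Genes named were the 7 with a probe, up to 5 of a list by largest difference among those past the rule, defining cell type markers, and the 10 and 5 most like Cd8a and Cd4. Promoter windows and gene order were from RefSeq.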

Additional observations from a re-analysis of the deposited data

How the results depend on the processing

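No paired analysis was possible because every group had 1 array, and for the same reason no replicate could be left out. No fold over normal given above for Cd8a, Cd8b, Cd4 or Cd3e turned its direction under any alternative. The direction of single other genes was not followed across the settings. At 120 hrs Cd8a was between 10.2-fold and 76.1-fold higher, Cd8b between 3.05-fold and 18.2-fold and Cd4 between 1.88-fold and 8.74-fold over 10 settings. The highest values came from the deposited intensities with no background model and no offset and the lowest from an offset of 50, which ended the calls of Cd4 at 120 hrs (log2 difference 0.91) and of Cd8b at 168 hrs (0.83), where 1 of the 7 genes was then higher.

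Cd8a was called at 24 hrs on the deposited intensities and with the measured difference in place of the bound, an alternative chosen after seeing the data (1 gene higher). Cd8b was called at 48 hrs under these and at 1.5-fold (2 genes higher). Cd4 was called at 72 hrs under both (log2 difference 1.71 and 1.03) and at 168 hrs under both (1.58 and 1.13) and at 1.5-fold (0.64), with 3 genes higher each. Cd3e was called lower at 12, 24, 48 and 72 hrs on the deposited intensities and at 1.5-fold, and at 24 hrs with the measured difference (1 gene lower each), with a log2 difference between -1.58 and -0.25 over all times and settings. Each gene had 1 probe, so averaging probes changed none of the 7. Normalization without the 120 hrs array changed no count of the 7 genes.

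Over all genes, 349, 636, 739, 1103, 1236 and 502 were past the rule in order of time. The counts were 786, 1357, 1438, 1973, 2004 and 1000 on the deposited intensities and 1003, 1762, 1911, 2551, 2685 and 1233 at 1.5-fold, and an offset of 50 gave 221 at 12 hrs. The share of these that was higher was 61.6% at 24 hrs, 66.0% at 72 hrs and 64.2% at 120 hrs, and without normalization between arrays 73.3%, 86.8% and 81.6%. With median scaling it was 79.8% at 72 hrs. On the deposited intensities it was 79.5% at 72 hrs and 76.2% at 120 hrs, and 72.6% at 168 hrs, where it was 84.5% otherwise. At 1.5-fold it was 58.0%, 51.3%, 51.6%, 49.8%, 50.6% and 62.6% in order of time, beside 77.7%, 67.5% and 84.5% at 12, 48 and 168 hrs with the 2-fold rule. The median of all genes lay at 0.16 at 72 hrs and 0.12 at 120 hrs without normalization, and at -0.07 at both with it.

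At 120 hrs 6 T-cell receptor signaling genes were higher in place of 4 on the deposited intensities (with Lck and Csk) and at 1.5-fold (with Csk and Bcl10), and 1 other T-cell gene was higher in place of 0 without normalization, on the deposited intensities and at 1.5-fold (Cd6), and with the mean over probes (Havcr2). Of cytotoxic and NK cell genes 3 were higher on the deposited intensities (Cst7, Ncr3 and Ccl5) and 1 with the measured difference (Cst7). Csk, Bcl10, Fyn, Plcg1, Prkcq, Cd6, Havcr2, Ncr3 and Ccl5 are named after their values were seen. Of the 10 genes most like Cd8a, 2 were shared with Spearman's rho, where 87 genes lay at or above the tenth value, 5 without the 120 hrs array, and 8 with no normalization and 8 with an offset of 50. The smallest intensities limit the CD3 genes: near a detection limit of about 10 units, a decrease or a small increase of Cd3d, Cd3g or Cd5 was not detectable on these arrays.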
